A study of Mus musculus with 6 samples.

Results

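The transcripts described here encode the subunits of protein kinase A (PKA) and 3 phosphodiesterases that break down cyclic AMP (cAMP). They were taken by symbol from the deposited tables: the catalytic subunits Prkaca and Prkacb, the regulatory subunits Prkar1a, Prkar1b, Prkar2a and Prkar2b, and the phosphodiesterases Pde3b, Pde4b and Pde4d. All 9 had a row among the 17342 named genes. All libraries were made from the inguinal white fat, a subcutaneous depot, of C57BL/6 mice aged 8 weeks that had been exposed to cold. The groups were wild type (WT, replicates 1 to 3) and Rarres2-/- (replicates 4 to 6), the latter lacking the gene for the adipokine chemerin, and no other allele or agent is given. No source used here states the temperature or length of the cold, the sex of the mice or which stretch of Rarres2 was deleted, and fat from mice kept warm was not analysed here. Whether the 6 libraries are 6 separate mice is also unstated, so p-values measure the spread between libraries, which may be technical.

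PKA at rest is a complex of catalytic subunits held inactive by a dimer of regulatory subunits. In fat, noradrenaline released in the cold acts on beta-adrenergic receptors, adenylyl cyclase makes cAMP, cAMP binds the regulatory subunits, and the freed catalytic subunits phosphorylate hormone-sensitive lipase and perilipin 1 to start lipolysis and drive thermogenic transcription. Phosphodiesterases end the signal by hydrolysing cAMP, and PDE3B is the form through which insulin restrains lipolysis. RII beta, the product of Prkar2b, is the regulatory subunit typical of adipocytes.

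Expression was deposited as FPKM (fragments per kilobase of transcript, scaled to the mapped fragments of each library), so levels of different genes can be set side by side. Rarres2 was at 436, 610 and 505 FPKM in WT and at 0.260, 6.35 and 1.41 FPKM in Rarres2-/- (two-sided exact permutation test, p = 0.1, the minimum that 3 against 3 libraries can give). Read totals were unknown, but steps between low FPKM values put WT replicate 1 at 0.495 times the depth of WT replicate 2 and the others at 0.695 to 1.01 times. WT replicate 1 and Rarres2-/- replicate 4 stood apart from the rest of their groups. The summed level of 5 endothelial markers was 169 and 110 FPKM in those libraries and 34.5 to 39.6 FPKM in the other 4, and that of 5 smooth muscle and pericyte markers was 138 and 144 FPKM against 32.8 to 42.2 FPKM. The endothelial marker Tek did not follow this split, at 10.05 and 10.5 FPKM in those libraries against 6.22 to 14.6 FPKM in the other 4. Adipocyte markers were abundant in every library, with Adipoq at 2118 to 2809 FPKM and Plin1 at 526 to 844 FPKM. Rarres2-/- replicate 4 had the lowest sum of 8 white adipocyte markers, 39630 FPKM against 58430 to 75170 FPKM in the other libraries. Pparg was at 84.35 FPKM there and at 150.8 to 209.5 FPKM in the others, while Plin1 was highest there. Differences between genotypes were tested with limma on log2(FPKM + 1) over the 11086 genes that averaged 1 FPKM or more. That left out Prkar1b and kept the other 8 genes. In bulk tissue, fewer cells of a type and less RNA per cell cannot be told apart.

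Prkar2b was the most abundant of the 9 transcripts, with a mean of 347 FPKM over the 6 libraries. Prkaca (120 FPKM) and Pde3b (114 FPKM) came next, followed by Prkar1a (75.6 FPKM), Prkacb (18.0 FPKM), Prkar2a (9.47 FPKM), Pde4d (3.42 FPKM), Pde4b (1.68 FPKM) and Prkar1b (0.757 FPKM). Each gene was above the next in 6 of 6 libraries, except that Prkaca exceeded Pde3b in 4 of 6 and Pde4d exceeded Pde4b in 5 of 6. A paired exact sign-flip permutation test on log2(FPKM + 1) gave an adjusted p of 0.0417 for each of the 6 neighbouring pairs with a constant order (two-sided, n = 6 libraries, adjusted over 8 pairs). Before adjustment this test gave 0.03125 for each, the minimum for 6 libraries, which follows from a constant order whatever the gap. The pairs were also set by ranking these same means, so the p restates the constant order. The test gave an adjusted p of 0.562 for Prkaca against Pde3b and 0.0714 for Pde4d against Pde4b, so these neighbours did not differ beyond their spread. The order of the means was the same in each genotype taken alone. Prkar2b stood at the 98.4th percentile of mean FPKM among the named genes, and Pde4d at the 50.2th.

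**Figure D1:**
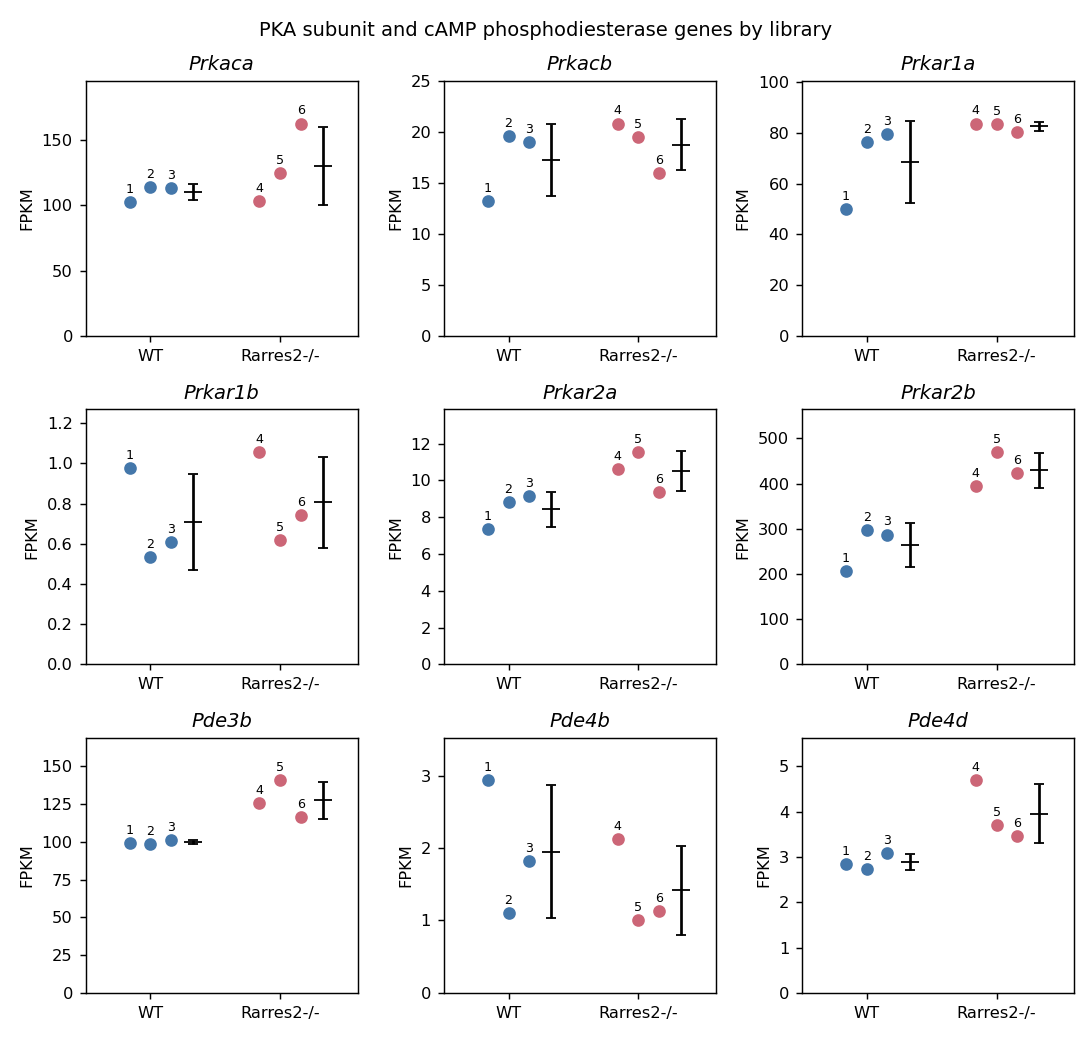
FPKM (vertical axis, from 0) of each gene in every library, with WT in blue and Rarres2-/- in red; digits are replicate numbers and black bars show the mean and SD of 3 libraries. Prkar2b lies at 394 to 470 FPKM in Rarres2-/- and 208 to 297 FPKM in WT, while Prkaca, Prkacb, Prkar1b and Pde4b overlap between genotypes.

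Among the catalytic subunits, Prkaca (chr8:83972978-83996444, plus strand, GRCm38), which encodes the widely expressed C alpha, was at 103, 114 and 113 FPKM in WT replicates 1 to 3 and at 103, 125 and 162 FPKM in Rarres2-/- replicates 4 to 6. Only Rarres2-/- replicates 5 and 6 were above every WT library, and replicate 4 lay inside the WT range. The means were 110 ± 6.31 and 130 ± 29.8 FPKM (SD, n = 3 each). The log2 difference was 0.22 (SE 0.206, 95% interval -0.27 to 0.71) with an adjusted p of 0.999 by limma. Leaving out Rarres2-/- replicate 6, where Prkaca was highest, gave 0.05. Prkacb (chr3:146729579-146812946, minus strand), which encodes C beta, was at 13.2, 19.6 and 19.0 FPKM in WT and at 20.9, 19.6 and 15.96 FPKM in Rarres2-/-. The genotypes overlapped, and the lowest library was WT replicate 1. Its log2 difference of 0.13 (SE 0.196, 95% interval -0.34 to 0.59) was -0.04 without WT replicate 1 and -0.12 without WT replicate 1 and Rarres2-/- replicate 4. Prkaca made up 86.5% ± 1.81 of the summed catalytic FPKM in WT and 86.9% ± 3.94 in Rarres2-/- (SD, n = 3 each), so C alpha transcripts predominated in both genotypes.

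Prkar2b (chr12:31958450-32061648, minus strand) was at 208, 297 and 287 FPKM in WT and at 394, 470 and 424 FPKM in Rarres2-/-. Every Rarres2-/- library was above every WT library, and the lowest value was again WT replicate 1. The means were 264 ± 49.0 and 429 ± 38.3 FPKM (SD, n = 3 each), with a ratio of 1.63 and a log2 difference of 0.71 (SE 0.212, 95% interval 0.21 to 1.22). Its unadjusted limma p was 0.0125, rank 116 of 11086 genes, and its adjusted p was 0.999. Relative to the mean log2 level of 8 white adipocyte markers in each library the difference was 0.70, and without WT replicate 1 and Rarres2-/- replicate 4 it was 0.61 (adjusted p = 0.0670 by limma). Over single omitted libraries it ran from 0.55 to 0.81, with an adjusted p of 0.355 to 1.0 by limma.

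Prkar2a encodes RII alpha, the other type II subunit, which like RII beta anchors PKA to A-kinase anchoring proteins. The gene lies at chr9:108692143-108750444 on the plus strand. It was at 7.35, 8.83 and 9.12 FPKM in WT and at 10.6, 11.5 and 9.38 FPKM in Rarres2-/-. The genotypes did not overlap, but Rarres2-/- replicate 6 was only slightly above WT replicate 3. Its log2 difference was 0.29 (SE 0.145, 95% interval -0.06 to 0.63; adjusted p = 0.999 by limma).

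The type I subunits are largely cytosolic, and Prkar1a, which encodes RI alpha, is the one expressed in most tissues. Prkar1a (chr11:109649023-109669663, plus strand) was at 49.9, 76.3 and 79.5 FPKM in WT and at 83.7, 83.6 and 80.5 FPKM in Rarres2-/-. The 3 Rarres2-/- libraries were close together (SD 1.83 FPKM), and the distance between the genotypes came mainly from WT replicate 1. The log2 difference of 0.29 (SE 0.212, 95% interval -0.21 to 0.80; adjusted p = 0.999 by limma) was 0.08 without WT replicate 1. Prkar1b (chr5:139017304-139150703, minus strand), which encodes RI beta, a subunit known mainly from the nervous system, was at 0.979, 0.536 and 0.610 FPKM in WT and at 1.06, 0.618 and 0.745 FPKM in Rarres2-/-. Its highest value in each genotype was in WT replicate 1 and Rarres2-/- replicate 4, the libraries with the higher vascular markers. The sum of 4 Schwann cell and nerve markers was also highest in those libraries, at 235 and 99.4 FPKM against 29.2 to 72.9 FPKM in the others. Among these markers, S100b was lowest in Rarres2-/- replicate 4, at 3.27 FPKM. The part of vascular or nerve cells in this was not tested. With a mean under 1 FPKM, Prkar1b was not tested between genotypes.

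The stretches before the transcription start of subunit genes are shown to set cAMP-responsive and general promoter motifs beside these levels. Sequences are from RefSeq on GRCm38.p6, 250 bases before an annotated start, 5′ to 3′ on the gene's strand. The Prkar2b and Prkar1a windows precede 1 of several annotated starts, lie inside the gene spans given above, and hold 19 and 28 bases that GENCODE annotates as UTR. Capitals mark matches on either strand to the full cAMP response element (TGACGTCA), its short core (TGACG, contained in the full element), the GC box (GGGCGG) and the CCAAT box (CCAAT). All of the 9 genes but Pde3b had a promoter in the table, with 24 starts in all. For genes with several starts, the windows shown are the first listed start of Prkar2b and Prkaca and, for Prkar1a, the start that holds the full element.
Prkar2b (chr12:32061278-32061527, minus strand): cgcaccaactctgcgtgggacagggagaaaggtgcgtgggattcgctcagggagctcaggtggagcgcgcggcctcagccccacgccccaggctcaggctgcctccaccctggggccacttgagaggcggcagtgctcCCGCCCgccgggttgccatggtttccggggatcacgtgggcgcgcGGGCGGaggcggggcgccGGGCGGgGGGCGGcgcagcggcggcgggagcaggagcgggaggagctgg
Prkar2a (chr9:108691893-108692142, plus strand): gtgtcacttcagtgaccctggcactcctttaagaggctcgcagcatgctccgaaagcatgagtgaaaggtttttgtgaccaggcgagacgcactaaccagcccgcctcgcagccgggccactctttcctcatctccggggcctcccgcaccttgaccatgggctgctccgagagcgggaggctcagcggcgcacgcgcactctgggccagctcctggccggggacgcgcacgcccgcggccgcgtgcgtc
Prkar1a (chr11:109650699-109650948, plus strand): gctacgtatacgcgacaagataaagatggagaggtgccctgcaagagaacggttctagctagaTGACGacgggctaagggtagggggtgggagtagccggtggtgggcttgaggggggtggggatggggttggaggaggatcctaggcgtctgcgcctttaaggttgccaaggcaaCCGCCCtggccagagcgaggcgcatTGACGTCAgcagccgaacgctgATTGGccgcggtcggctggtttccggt
Prkaca (chr8:83972728-83972977, plus strand): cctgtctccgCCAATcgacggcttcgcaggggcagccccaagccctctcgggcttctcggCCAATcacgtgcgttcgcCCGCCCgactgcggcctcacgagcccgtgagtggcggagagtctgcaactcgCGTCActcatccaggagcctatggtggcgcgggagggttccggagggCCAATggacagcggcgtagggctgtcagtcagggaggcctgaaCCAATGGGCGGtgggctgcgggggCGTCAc
The Prkar2b window held 4 GC boxes, at 75.6% G and C, and neither form of the cAMP response element. The Prkar2a window held none of the 4 motifs. The Prkar1a window held the full element, 42 to 49 bases before the start, and was the 1 of the 24 member starts that did. Of all 32851 promoters in the table, 1.55% held the full element, 17.8% its core, 32.7% a GC box and 33.8% a CCAAT box. Among the 24 member starts, 7 held the core, 9 a GC box and 5 a CCAAT box. These starts belong to 8 genes and some of their windows overlap. The same core of Prkar1a and the same CCAAT box of Prkar1b were therefore each counted at more than 1 start. A match describes the letters only.

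Set together, the regulatory transcripts summed to 266, 383 and 377 FPKM in WT and to 489, 566 and 515 FPKM in Rarres2-/-, with no overlap. Prkar2b held 78.1%, 77.6% and 76.3% of that sum in WT and 80.5%, 83.1% and 82.4% in Rarres2-/-. The Rarres2-/- shares were all above the WT shares, at 82.0% ± 1.33 against 77.3% ± 0.924 (SD, n = 3 each), and leaving out any single library kept the difference of the means between 4.10 and 5.38 percentage points. The Prkar1a share was 19.9% ± 1.17 in WT and 15.8% ± 1.18 in Rarres2-/-. The ratio of Prkar2b to Prkar1a was 4.16, 3.89 and 3.62 in WT and 4.71, 5.62 and 5.27 in Rarres2-/-, so WT replicate 1 did not stand below its group in this ratio as it did in the level of each gene. Prkar2b was most of the regulatory sum, so the sum, the shares and the ratio largely restate its own difference and are not separate observations. Shares and ratios over chosen genes are given as a description, without a test.

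The summed catalytic FPKM was 116, 133 and 132 in WT and 124, 144 and 178 in Rarres2-/-, with overlap. The ratio of summed catalytic to summed regulatory FPKM was 0.436, 0.349 and 0.351 in WT and 0.254, 0.255 and 0.346 in Rarres2-/-. All 3 Rarres2-/- ratios were below the WT ratios, but replicate 6, with the highest Prkaca, came close to WT replicate 2. The means were 0.379 ± 0.0495 and 0.285 ± 0.0530 (SD, n = 3 each). The regulatory sum in this ratio was mostly Prkar2b, so the ratio is not separate from the difference in that gene.

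**Figure D2:**
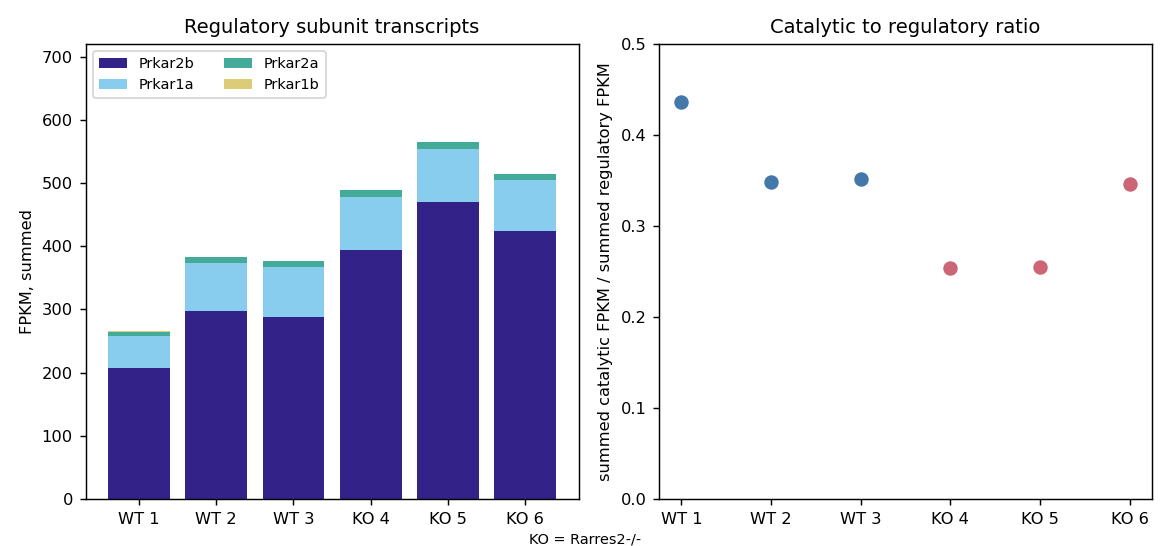
Left, stacked FPKM of the 4 regulatory subunit genes in each library (KO, Rarres2-/-); right, the ratio of summed catalytic to summed regulatory FPKM, each axis from 0. Regulatory sums are 266 to 383 FPKM in WT against 489 to 566 FPKM in Rarres2-/-, mostly Prkar2b, and the ratio is lowest in Rarres2-/- replicates 4 and 5 at 0.254 and 0.255.

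Among the phosphodiesterases, Pde3b (chr7:114415222-114537938, plus strand) was at 99.3, 98.7 and 101 FPKM in WT and at 125, 141 and 116 FPKM in Rarres2-/-. The WT libraries were nearly equal, WT replicate 1 included, and every Rarres2-/- library was above them. The means were 99.7 ± 1.21 and 128 ± 12.2 FPKM (SD, n = 3 each), with a ratio of 1.28 and a log2 difference of 0.35 (SE 0.154, 95% interval -0.02 to 0.71; unadjusted p = 0.0604, adjusted p = 0.999 by limma). Over single omitted libraries the difference ran from 0.27 to 0.41.

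Pde4d and Pde4b belong to the PDE4 family, which is specific for cAMP and is blocked by rolipram. Pde4d spans 1301793 bases (chr13:108654177-109955969, plus strand) with 20 annotated GENCODE transcripts, which FPKM per gene does not separate. It was at 2.85, 2.73 and 3.08 FPKM in WT and at 4.69, 3.71 and 3.47 FPKM in Rarres2-/-, without overlap and highest in Rarres2-/- replicate 4. Its log2 difference was 0.34 (SE 0.149, 95% interval -0.01 to 0.70; adjusted p = 0.999 by limma) and 0.24 without WT replicate 1 and Rarres2-/- replicate 4. Pde4b (chr4:102087332-102607275, plus strand) was at 2.93, 1.10 and 1.82 FPKM in WT and at 2.13, 1.003 and 1.12 FPKM in Rarres2-/-. It was the only tested gene of the 9 with a lower mean in Rarres2-/-, the genotypes overlapped, and the highest value of each genotype was in WT replicate 1 and Rarres2-/- replicate 4. Its log2 difference was -0.27 (SE 0.288, 95% interval -0.95 to 0.42; adjusted p = 0.999 by limma) and ran from -0.04 without WT replicate 1 to -0.49 without WT replicate 2; without Rarres2-/- replicate 4 it was -0.47.

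Pde3b was also the most abundant of the 16 genes listed for cAMP-hydrolysing phosphodiesterases. It held 52.8%, 60.7% and 59.8% of their summed FPKM in WT and 62.1%, 64.6% and 62.1% in Rarres2-/-. Every Rarres2-/- share was above every WT share. The difference of the means, 5.18 percentage points, was 2.68 without WT replicate 1, where Pde2a, a phosphodiesterase stimulated by cyclic GMP, reached 39.4 FPKM. Pde4d and Pde4b held 1.67% and 1.10% in WT and 1.96% and 0.705% in Rarres2-/-. After Pde3b came the calcium- and calmodulin-stimulated Pde1a at a mean of 25.6 FPKM, Pde2a at 15.7 FPKM and Pde8a at 10.8 FPKM. Pde2a was at 22.5 FPKM in Rarres2-/- replicate 4 and at 6.56 to 9.82 FPKM in the other 4 libraries. The sum of the endothelial markers had the same split, though Tek among them did not. The part of endothelial cells in it was not tested. Of the 13 listed genes beside Pde3b, Pde4b and Pde4d, 7 were tested, and Pde7a, which encodes a high-affinity cAMP phosphodiesterase, had the smallest p. It was at 4.07, 5.29 and 5.74 FPKM in WT and at 7.01, 7.15 and 7.18 FPKM in Rarres2-/-. The log2 difference was 0.44 (SE 0.149) with an unadjusted p of 0.0223 and an adjusted p of 0.999 by limma.

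**Figure D3:**
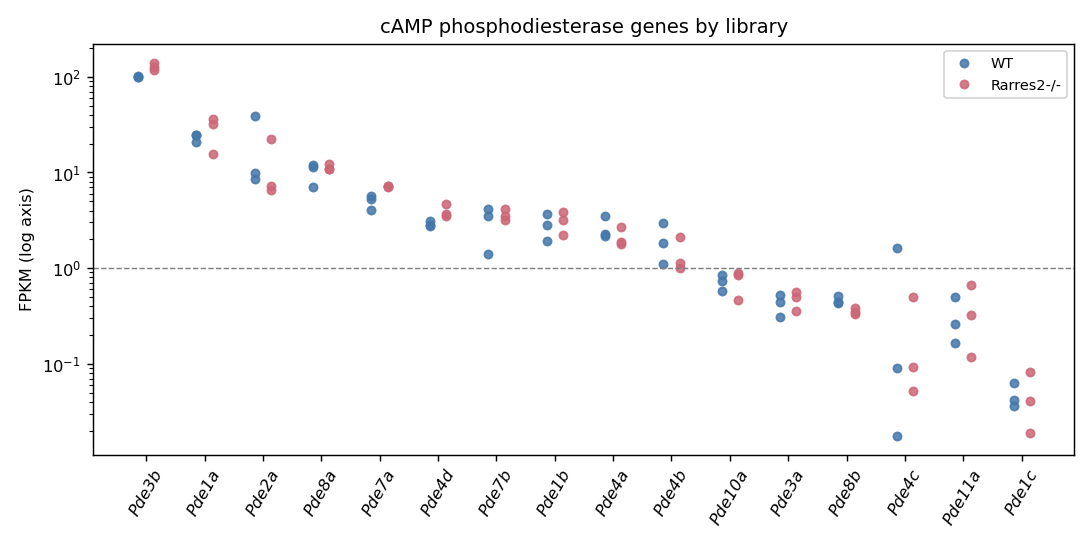
FPKM on a log axis of 16 cAMP phosphodiesterase genes in each library, ordered by mean, with WT in blue, Rarres2-/- in red and the filter of 1 FPKM as a dashed line. Pde3b lies highest, at 98.7 to 141 FPKM, and Pde4d and Pde4b lie between 1.003 and 4.69 FPKM.

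Over the 8 tested genes, 7 had a higher and 1 a lower mean of log2 values in Rarres2-/-, with a median log2 difference of 0.29, against -0.01 over all tested genes. None of the 8 passed limma at an adjusted p under 0.05, as for all 11086 genes (0 called, 0%). At an unadjusted p under 0.05 there was 1 of the 8, Prkar2b, where 3.93% of all genes were called (436 genes, 2.2% higher and 1.73% lower in Rarres2-/-). The genotypes did not overlap in 5 of the 8, all higher in Rarres2-/-: Prkar2b, Prkar2a, Prkar1a, Pde3b and Pde4d. Of all tested genes 10.3% did not overlap, 5.81% higher and 4.53% lower in Rarres2-/-. With WT replicate 1 and Rarres2-/- replicate 4 left out, which was tried for this count after the data were seen, 6 of the 8 did not overlap, Prkaca being the sixth, against 31.7% of all tested genes higher and 26.5% lower without overlap. With library weights estimated by limma, Prkar2b, Pde3b and Prkar2a had adjusted p-values of 0.0163, 0.0242 and 0.0494, in a setting that called 1524 of the 11086 genes. The largest weight there, 6.19, went to Rarres2-/- replicate 5, the highest library for each of these genes. The genes were chosen with results of these data known, so the counts are a description. WT replicate 1 was the lowest library for 5 of the 9 genes and the highest for 1.

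**Figure D4:**
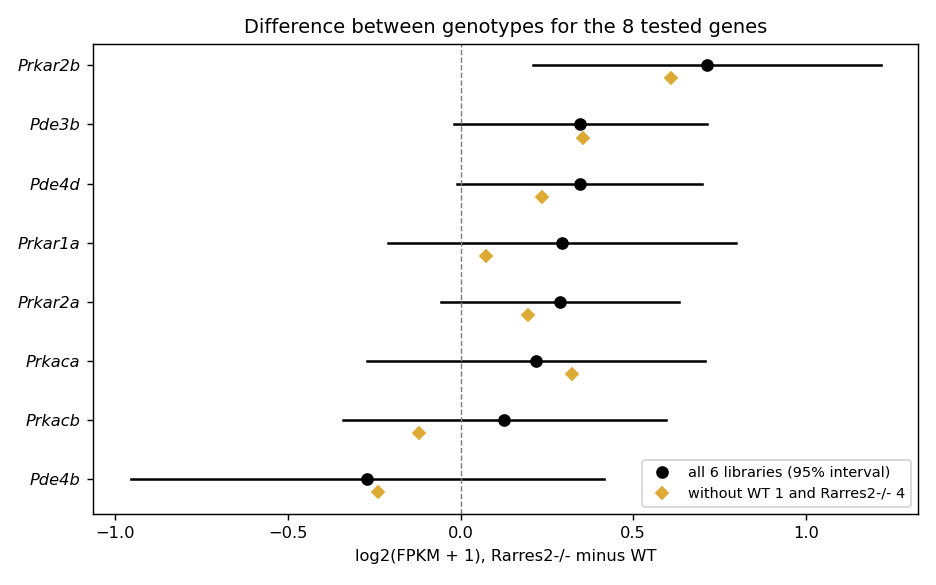
Log2(FPKM + 1) difference between genotypes (horizontal axis, Rarres2-/- minus WT) for the 8 tested genes: black points and lines are the estimate and 95% interval from limma over 6 libraries, and yellow diamonds the estimate without WT replicate 1 and Rarres2-/- replicate 4. The Prkar2b interval, 0.21 to 1.22, is the only one that does not include 0; Prkar1a moves from 0.29 to 0.07.

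The other genes of the pathway were followed through lists of receptors, G proteins, cyclases, anchors and substrates. Of 101 such genes with a row, 75 were tested and 0 passed limma at an adjusted p under 0.05. At an unadjusted limma p under 0.05 there were 7, where 3.93% of all tested genes were called. The genotypes did not overlap in 12 that were higher and 1 that was lower in Rarres2-/-, which is 16% and 1.33%, beside 5.81% and 4.53% of all tested genes. The median log2 difference of the 75 genes was 0.04.

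Upstream of PKA, 8 receptors that raise cAMP were tested, 4 higher and 4 lower in mean, with a median log2 difference of 0.06. The thyrotropin receptor gene Tshr ranged from 14.2 to 14.9 FPKM in WT and from 15.95 to 19.3 FPKM in Rarres2-/- (log2 difference 0.26). Adrb1, which encodes a beta-adrenergic receptor, had a log2 difference of -0.25 with overlapping libraries. All 6 tested receptors that lower cAMP had higher means in Rarres2-/- with overlapping libraries and a median log2 difference of 0.25. The differences were 0.45 for Hcar1, the lactate receptor gene, listed as Gpr81, 0.34 for the prostaglandin receptor gene Ptger3 and 0.26 for Hcar2, the nicotinic acid receptor gene, listed as Niacr1.

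Of 6 tested G protein alpha subunits, Gnai1, which encodes an inhibitor of adenylyl cyclase, had the smallest p. It was at 49.8, 69.7 and 67.2 FPKM in WT and at 79.5, 113 and 102 FPKM in Rarres2-/-. The log2 difference was 0.65 (SE 0.212; unadjusted p = 0.0191, adjusted p = 0.999 by limma). Gnas, which encodes the stimulatory subunit, had a log2 difference of -0.07, and Gnai3 of 0.12. Among 6 tested adenylyl cyclases the median was 0.20. Adcy3 and Adcy6 had separate genotypes, higher in Rarres2-/-, as had 5.81% of all tested genes. Adcy3 was at 2.60, 5.53 and 5.94 FPKM in WT and at 10.8, 7.92 and 6.27 FPKM in Rarres2-/-. The log2 difference was 0.74 (SE 0.300). Adcy6 ranged from 19.2 to 23.8 FPKM in WT and from 26.3 to 34.0 FPKM in Rarres2-/-. The log2 difference was 0.40 (SE 0.165). Adcy5, at 62.7 FPKM in Rarres2-/- replicate 4 and 13.03 to 20.03 FPKM in the other libraries, had a log2 difference of 0.76 that rests on that library.

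The PKA inhibitor genes Pkia and Pkig had log2 differences of -0.04 and 0.05, and Prkx, which encodes a related kinase, of 0.05. None of 12 tested A-kinase anchoring protein genes had separate genotypes, and their median log2 difference was -0.07. Akap1, whose product anchors PKA at mitochondria, had 0.33, Akap2 0.34 and Akap11 0.16. In Rarres2-/- replicate 4, Akap1 was at 29.7 FPKM and Akap2 at 39.2 FPKM. Both lay inside the WT range in replicates 5 and 6. Of the other cAMP effectors, Rapgef3, which encodes the exchange factor EPAC1, was at 11.5 FPKM in WT replicate 1 and 13.9 FPKM in Rarres2-/- replicate 4 and at 2.42 to 3.24 FPKM in the other 4 libraries. It had a log2 difference of 0.20, Popdc2 of -0.04 and Abcc4, a cAMP exporter gene, of -0.09.

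Downstream, 11 PKA substrates and CREB partners had a median log2 difference of 0.04. Without overlap, 4 of them were higher and 1 lower, beside 5.81% and 4.53% of all tested genes. Plin1, the perilipin 1 gene, averaged 552 ± 42.7 FPKM in WT against 789 ± 94.8 FPKM in Rarres2-/- (SD, n = 3 each), and its log2 difference was 0.51. The salt-inducible kinase gene Sik2 ranged from 26.2 to 31.5 FPKM in WT and from 31.7 to 62.7 FPKM in Rarres2-/- (log2 difference 0.64), and Sik1 had 0.80 with overlapping libraries. Sik1 was at 15.15 FPKM in Rarres2-/- replicate 4 and inside the WT range in replicates 5 and 6. Lipe, which encodes hormone-sensitive lipase, was named after its values were seen; it ranged from 685 to 786 FPKM in WT and from 835 to 1022 FPKM in Rarres2-/-. Among 9 tested cAMP-responsive target genes the median was 0.32, with members from -1.08 to 0.96. Dio2, the enzyme that activates thyroid hormone, ranged from 1.72 to 1.90 FPKM in WT and from 2.08 to 4.604 FPKM in Rarres2-/- (log2 difference 0.54), and Per1 had 0.75 with overlapping libraries. Per1 was at 30.4 FPKM in Rarres2-/- replicate 4 and inside the WT range in replicates 5 and 6.

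The partners of PDE3B included Abhd15, whose product binds and stabilises PDE3B in adipocytes. It was at 21.8, 19.9 and 18.6 FPKM in WT and at 31.8, 25.4 and 27.1 FPKM in Rarres2-/-, without overlap. The log2 difference was 0.46 (SE 0.149; unadjusted p = 0.0180, adjusted p = 0.999 by limma). Akt2, the insulin-activated kinase of adipocytes, ranged from 143 to 163 FPKM in WT and from 171 to 198 FPKM in Rarres2-/- (log2 difference 0.27), and Pik3cg had -0.33 with overlapping libraries. The median over the 6 genes of that list was -0.01.

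**Figure D5:**
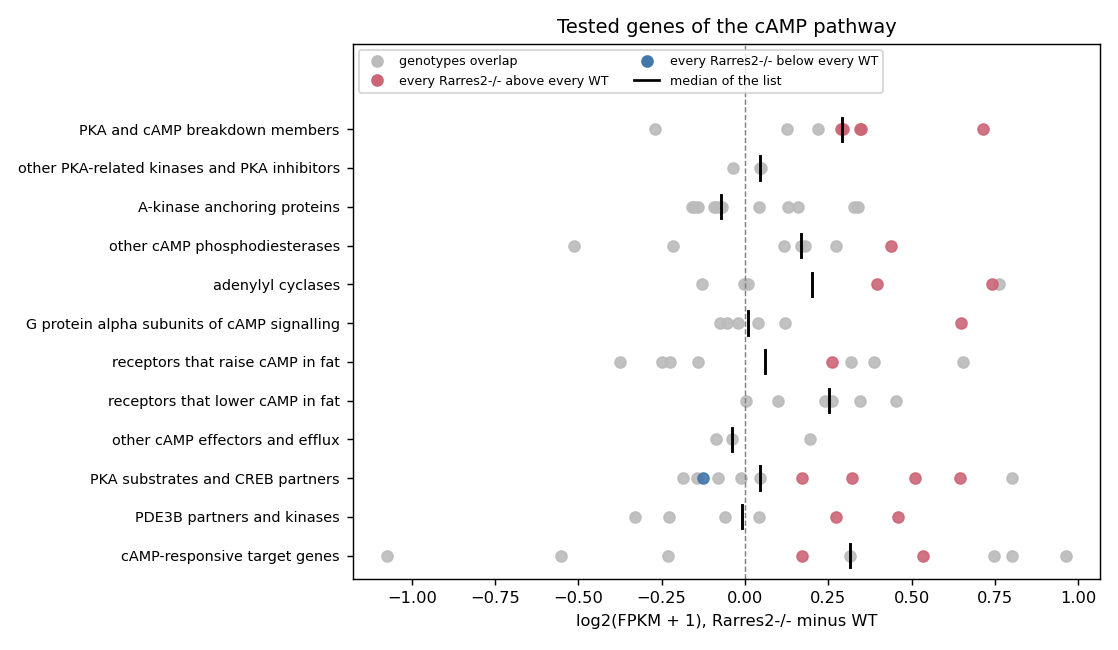
Log2(FPKM + 1) difference between genotypes (horizontal axis, Rarres2-/- minus WT) of every tested gene in 12 lists of the cAMP pathway; red and blue points are genes whose genotypes do not overlap, grey points overlap, and black ticks are list medians. The PKA and phosphodiesterase genes have a median of 0.29 and the anchoring proteins of -0.07; 0 of the points passed limma.

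Tested genes were also ranked by how closely they followed Prkar2b over the 6 libraries, as the mean absolute difference of log2(FPKM + 1) after centring each gene on its own mean. The closest were Gnai1 (0.0660), Slc5a3 (0.0813), Acsl1 (0.0821), Lpgat1 (0.0837) and Pik3cb (0.0907), where the median gene was at 0.388. Gnai1 thus shared the low value in WT replicate 1 and the highest in Rarres2-/- replicate 5. For Pde3b the closest were Prkaa2 (0.0330), Actr1b (0.0389), Stk35 (0.0423), Rasa2 (0.0475) and Nt5c2 (0.0529), with the median gene at 0.254. The points share the library and its depth, and closeness over 6 libraries is a description.

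Of 8 tested white adipocyte markers, 5 had a higher mean of log2 values in Rarres2-/-. The sum of the 8 ran from 58430 to 74170 FPKM in WT and from 39630 FPKM in replicate 4 to 75170 FPKM in replicate 6 of Rarres2-/-. That sum is mostly Fabp4 and Cfd; the genotypes did not overlap in Cidec and Plin1, both higher in Rarres2-/-, and in Cfd, which was lower. Of 6 brown and beige markers 3 had a higher mean of log2 values in Rarres2-/-, and 2 of them, Ucp1 and Dio2, did not overlap. Cidea, Cox7a1 and Cox8b had a lower mean of log2 values in Rarres2-/-, with overlap. Cox7a1 and Cox8b were lowest in Rarres2-/- replicate 4, at 60.95 and 454 FPKM, and highest in Rarres2-/- replicate 6, at 346 and 1419 FPKM. The summed level overlapped too. Of all tested genes 5.81% were higher and 4.53% lower in Rarres2-/- without overlap. Ucp1, the uncoupling protein of thermogenic fat, was at 43.2, 46.6 and 56.1 FPKM in WT, and Rarres2-/- libraries were at 61.5, 62.8 and 74.6 FPKM (log2 difference 0.44, SE 0.170; unadjusted p = 0.0360, adjusted p = 0.999 by limma). These markers were named after their values were seen, and their part in the levels of the 9 genes was not tested. Macrophage markers summed to 177 to 644 FPKM in WT against 299 to 400 FPKM in Rarres2-/-, progenitor and fibroblast markers to 534 to 2632 and 1099 to 1273 FPKM, and skeletal muscle markers to 51.1 to 598 and 110 to 205 FPKM, all with overlap. In each of these sums the overlap came from WT replicate 1 alone. WT replicates 2 and 3 had macrophage sums of 618.5 and 644.1 FPKM and progenitor sums of 2632 and 2097 FPKM, above every Rarres2-/- library. Their skeletal muscle sums, 51.1 and 105 FPKM, were below every Rarres2-/- library. WT replicate 1, the lowest library for Prkar2b, Prkar1a, Prkar2a and Prkacb, had the lowest macrophage and progenitor sums and the highest endothelial and skeletal muscle sums. The part of these cell types in the levels of those genes, and of vascular cells in Pde4b, was not tested.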

How the data were processed

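Total RNA was extracted with a kit for lipid tissue and sequenced on an Illumina instrument, per the labels' protocols. The authors deposited FPKM, with a separate table for each library, per the file headers. For WT replicate 3 the header carries only a sample name; its column was taken as FPKM because its rows and scale equal those of the other 5. Bowtie and mm10 are named in the submitters' processing notes. The quantifier, gene models, strand use, treatment of shared reads and versions: not given in the sources used here. These values are already divided by length and library total and hold no counts, and they are per gene, so isoforms cannot be told apart and absolute depth is unknown. Left out were 737 rows without a symbol, which held 0.793% to 4.91% of the summed values. In WT replicate 1 the small nucleolar RNA gene Snord2 held 62.1% of the sum.

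The test ran on log2(FPKM + 1), a scale that understates changes in weakly expressed genes, over the 11086 genes averaging 1 FPKM or more. It was limma 3.58.1 under R 4.3.3 (lmFit, then eBayes with a mean-variance trend; two-sided; genotype as the only term), with Benjamini-Hochberg adjustment over all tested genes. The scripts were tested on simulated data. Members and lists were chosen with earlier results of these data known. Lipe, Snord2, Snord4a, the phosphodiesterases next in level to Pde3b, and Ucp1 and other single cell type markers were chosen after their values were seen. Otherwise the text names the 9 genes, Rarres2, up to 3 genes with the smallest p of each list, and the 5 genes most like Prkar2b and Pde3b. A gene that this rule names is not reported here. Older symbols served to find 3 list genes, and another 3 were not found. Positions are RefSeq's on GRCm38, which is mm10 under another name. Relative depth was read from ratios of values under 0.15 FPKM. Alternatives were other scalings, a pseudocount of 0.1, other filters, array weights, no trend and libraries left out.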

Additional observations from a re-analysis of the deposited data

How the results depend on the processing

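limma called 0 genes as reported and also with quantile normalization, a pseudocount of 0.1, no filter or no trend. It called 1 gene, Rarres2, with upper-quartile scaling, with scaling without the 20 most abundant genes, relative to white adipocyte markers, and with at least 5 FPKM in 3 libraries. Leaving out single libraries gave 0 to 1 genes (Rarres2 without Rarres2-/- replicate 5, Snord4a without Rarres2-/- replicate 6). Leaving out WT replicate 1 and Rarres2-/- replicate 4 gave 68 genes, none of them among the 9. Array weights, whose fit stopped before its tolerance was reached, counted WT replicate 1 (0.192) and Rarres2-/- replicate 4 (0.179) least. They counted Rarres2-/- replicate 5 most (6.19, with replicate 6 at 0.736) and gave 1524 genes. These included Prkar2b (0.68, adjusted p = 0.0163), Pde3b (0.46, 0.0242) and Prkar2a (0.31, 0.0494), by limma; the cause was not tested.

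Of 141 values of single members under the alternatives, 3 newly passed the threshold, those with array weights, and none that had passed was lost, since none passed as reported. Among the tested genes 2 values changed sign: Prkacb was -0.04 without WT replicate 1 and -0.12 without WT replicate 1 and Rarres2-/- replicate 4. With single libraries left out it ran from -0.04 to 0.23. Prkaca ran from 0.05 to 0.37, Prkar1a from 0.08 to 0.41 and the untested Prkar1b from -0.01 (without Rarres2-/- replicate 4) to 0.19. No scaling changed the sign of a member. No paired analysis was possible because the genotypes share no replicate numbers. FPKM without counts gives no counting error for the low genes Prkar1b, Pde4b and Pde4d.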
